A study of Mus musculus with 9 samples.

Results

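Activated T cells make their own brakes: signals from the T cell receptor switch on genes whose products damp the kinases, the small GTPase Ras and the MAP kinases that carried the signal. The 10 such genes described here, of 20618 in the tables, were taken by name: the sprouty genes Spry1 and Spry2 and their relative Spred1, the dual-specificity phosphatases Dusp2, Dusp4, Dusp5, Dusp6 and Dusp10, the tyrosine phosphatase Ptpn22 and the ubiquitin ligase Cblb. All 10 were found. They were measured by RNA-seq in CD8+ T cells, the cytotoxic lymphocytes, from wild-type mice.

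The cells spent 24 h in 1 of 3 media, each with 10% dialyzed FBS: 2 mM glucose, 2 mM inosine, or 2 mM inosine together with hypoxanthine. The labels print the hypoxanthine dose as 100 M, evidently with a unit prefix missing, so it is not used as a concentration here. Inosine is the nucleoside that joins hypoxanthine to ribose. Each medium has 3 libraries of sorted live cells, all given 1 batch label. The labels do not tell which libraries share an animal or a culture, or how the cells had been stimulated, and the p-values below measure the spread between these libraries, which may be technical.

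Levels are FPKM, fragments scaled to gene length and library size, so levels of different genes can be compared. Differences between media are differences in mean log2(FPKM + 1), in which low genes appear to change less than they did. They come from limma fitted to all 20618 genes and 9 libraries at once, with Benjamini-Hochberg adjusted p-values over all genes, and a gene is called where that value is under 0.05. Depth ran from 30236903 to 49120676 recovered reads per library. The 10 genes had between 176 reads (Dusp10 in glucose replicate 1) and 14491 reads (Cblb with hypoxanthine, replicate 1). The summed FPKM of 7 markers of CD8 T cells was 1116 to 1174 in glucose, 1068 to 1239 in inosine and 1594 to 1652 with hypoxanthine, and 5 of the 7 were called higher with hypoxanthine than in inosine. No gene of the lists for CD4 T cells, B cells, NK cells, myeloid, dendritic or erythroid cells was called in that comparison. Of 3 measured tumour or stromal cell markers, Epcam alone was called, and the list's summed FPKM was 1.16 to 1.40 in inosine and 2.11 to 2.20 with hypoxanthine. The part of the markers in the results below was not tested. In these bulk libraries, a change in the share of cells that make a transcript and a change in its amount per cell cannot be told apart.

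As background, sprouty and SPRED proteins are induced by the Ras and ERK pathway and hold it back: SPRED1 brings neurofibromin, which inactivates Ras, to the membrane. Dual-specificity phosphatases remove phosphate from the activation loop of MAP kinases and are themselves induced by those kinases. DUSP2, DUSP4 and DUSP5 act in the nucleus, DUSP6 acts in the cytoplasm on ERK, and DUSP10 acts mainly on JNK and p38. PTPN22 works further up, on the kinases LCK and ZAP70 next to the receptor. CBLB adds ubiquitin to proteins of the receptor pathway and is best known for keeping T cells that lack costimulation unresponsive.

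With hypoxanthine added to inosine, Spry1, Dusp4 and Cblb were called higher and none of the 10 was called lower. Against glucose the same 3 genes and Dusp6 were called higher. Between inosine alone and glucose none of the 10 was called. Over all genes, 21.3% were called between hypoxanthine and inosine and 20.3% between hypoxanthine and glucose. Among genes averaging 1 FPKM or more, as all 10 do, these shares were 32.9% and 30.9%, so the number of calls among the 10 is near that of expressed genes in general.

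**Figure D1:**
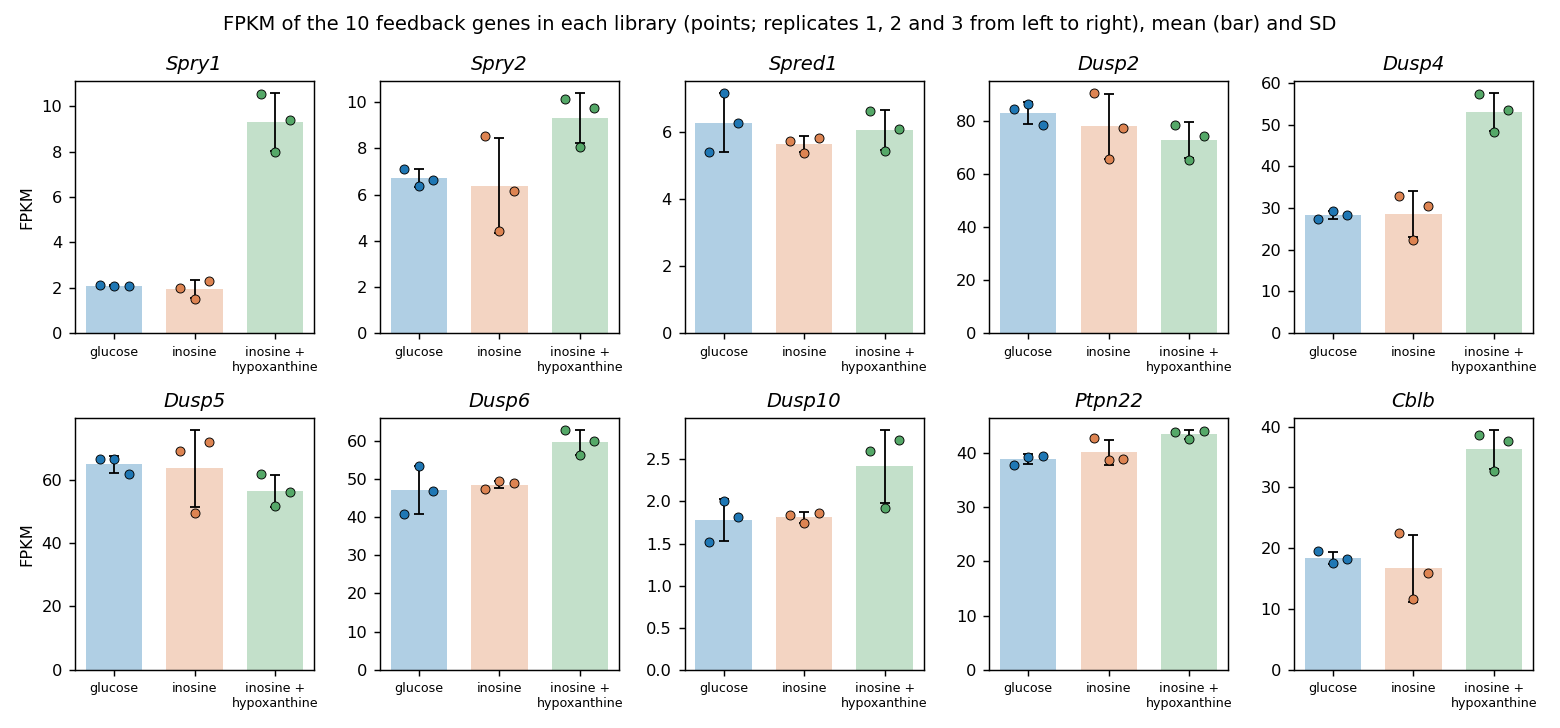
FPKM of each of the 10 genes (y axis, from 0, a separate scale in each panel) in glucose, inosine, and inosine plus hypoxanthine (x axis). Points are libraries, bars are means and error bars are SD of 3 libraries; Spry1, Dusp4 and Cblb stand clear of the other 6 libraries with hypoxanthine, while the Dusp2 and Spred1 libraries overlap between media.

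Spry1, an inhibitor of Ras-to-ERK signalling, changed most. It measured 2.13, 2.06 and 2.09 FPKM in the 3 glucose libraries. In inosine it measured 1.97, 1.51 and 2.30 FPKM. With hypoxanthine it measured 10.5, 8.00 and 9.39 FPKM. The lowest hypoxanthine library was thus far above the highest of the other 6, and glucose and inosine overlapped. Its mean was 4.82 times that in inosine and 4.45 times that in glucose. It differed on the log2 scale by 1.82 ± 0.12 (SE) from inosine, with a limma adjusted p of 3.9e-05. From glucose it was 1.73 ± 0.12, with an adjusted p of 4.6e-05. Spry1 lies on chromosome 3 at 37639947 to 37644599 on the plus strand (GRCm38.p6). An annotated transcript on the other strand, Gm42922, shares 710 exonic bases with it, and the strand of the libraries is not stated, so reads of the pair cannot be told apart.

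Spry2, its close relative, had more transcript than Spry1 in glucose and inosine and the same mean with hypoxanthine. It measured 7.13, 6.37 and 6.64 FPKM in glucose. Inosine gave 8.54, 4.44 and 6.18 FPKM, the widest relative spread of any of the 3 media for this gene. Hypoxanthine gave 10.1, 8.07 and 9.74 FPKM. The hypoxanthine libraries all lay above the glucose libraries, and they overlapped with inosine through inosine replicate 1. On the log2 scale it differed by 0.51 from inosine (95% interval 0.11 to 0.92, adjusted p = 0.077) and 0.41 from glucose (0.0073 to 0.82, adjusted p = 0.15). Neither passed the limma test. Without inosine replicate 1, the adjusted p was 0.0097 against inosine and 0.047 against glucose. Without inosine replicate 2 it was 0.043 against glucose, while the difference from inosine was 0.31 with an adjusted p of 0.16. With limma voom on recovered reads the adjusted p was 0.018 against inosine and 0.044 against glucose. Of 18 alternative settings, Spry2 was called in 4 against inosine and in 5 against glucose, with adjusted p up to 0.21 and 0.31.

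Spred1 showed no called difference. Its libraries ran from 5.41 to 7.18 FPKM in glucose, 5.39 to 5.82 in inosine and 5.46 to 6.64 with hypoxanthine, and all 3 media overlapped. The log2 difference with hypoxanthine was 0.086 from inosine (95% interval -0.14 to 0.31) and -0.040 from glucose (-0.27 to 0.19), with adjusted p of 0.61 and 0.84. These intervals leave out a change as large as that of Spry1.

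Because the 3 genes moved by different amounts, their proportions moved too. Spry1 made up 14.5%, 13.2% and 13.9% of the summed FPKM of Spry1, Spry2 and Spred1 in the glucose libraries. In inosine its share was 12.1%, 13.4% and 16.1%, and with hypoxanthine 38.6%, 37.1% and 37.2%. The share with hypoxanthine varied little although the summed FPKM itself varied from 21.5 to 27.3. Spry1 stood at 0.231 to 0.372 of the Spry2 level in the 6 libraries without hypoxanthine and at 0.964 to 1.04 of it with hypoxanthine. With 3 libraries against 3 an exact permutation test cannot give a two-sided p under 0.10, so these shares are given as a description.

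Dusp4, a nuclear phosphatase of MAP kinases, was called in both comparisons with hypoxanthine, alone among the dual-specificity phosphatases named at the outset. It measured 27.4, 29.2 and 28.3 FPKM in glucose and 32.9, 22.3 and 30.6 FPKM in inosine. With hypoxanthine it measured 57.3, 48.2 and 53.6 FPKM, above every library of the other media. The mean level was 1.85 times that in inosine and 1.87 times that in glucose. The log2 difference was 0.88 ± 0.13 (SE) from both, with limma adjusted p of 0.0021 and 0.0023. Dusp4 lies on chromosome 8 at 34807610 to 34819894 on the plus strand (GRCm38.p6).

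Dusp2, an ERK and p38 phosphatase first known from activated T cells, was the most abundant of the 10 in every medium. It measured 84.8, 86.5 and 78.5 FPKM in glucose, 90.7, 65.8 and 77.7 in inosine, and 78.7, 65.4 and 74.5 with hypoxanthine. The means with hypoxanthine were the lowest of the 3 media, but the libraries overlapped. Its log2 differences were -0.091 from inosine (95% interval -0.36 to 0.18, adjusted p = 0.65) and -0.19 from glucose (-0.46 to 0.076, adjusted p = 0.31).

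Dusp5, a nuclear phosphatase of ERK, resembled Dusp2. It measured 66.4, 66.4 and 61.7 FPKM in glucose, 69.1, 49.5 and 72.0 in inosine, and 61.7, 51.6 and 56.1 with hypoxanthine. The glucose libraries lay above the hypoxanthine libraries, by a margin too small to show at this rounding, and inosine overlapped with both. With hypoxanthine its log2 difference was -0.15 from inosine (95% interval -0.46 to 0.15, adjusted p = 0.49) and -0.20 from glucose (-0.51 to 0.11, adjusted p = 0.37). Without inosine replicate 2, the low library, the difference from inosine was -0.32 with an adjusted p of 0.033. An antisense transcript, AC137853.2, shares 547 exonic bases with Dusp5 and carries the same caution on strand.

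Dusp6, the cytoplasmic ERK phosphatase, measured 40.9, 53.5 and 46.9 FPKM in glucose. Inosine gave 47.4, 49.3 and 48.8 FPKM and hypoxanthine 62.7, 56.2 and 60.0 FPKM. The hypoxanthine libraries lay above all 6 others. The log2 difference was 0.34 ± 0.095 (SE) from glucose, which was called with an adjusted p of 0.035. From inosine it was 0.29 ± 0.095, with an adjusted p of 0.061, which was not. Both values sit near the threshold. The call against glucose was lost without glucose replicate 1 (adjusted p = 0.084), glucose replicate 3 (0.094), inosine replicate 3 (0.057), or hypoxanthine replicate 1 (0.11), 2 (0.051) or 3 (0.11). Against inosine a call appeared without glucose replicate 1 (0.027) or glucose replicate 2 (0.032). It also appeared with a filter at a mean of 1 FPKM, quantile normalization, the 2 media alone and limma voom. Of 18 alternative settings, Dusp6 was called in 9 against glucose and in 6 against inosine.

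Dusp10, the JNK and p38 phosphatase, was the least abundant of the 10 in every medium. It measured 1.52, 2.01 and 1.82 FPKM in glucose, 1.83, 1.74 and 1.87 in inosine, and 2.60, 1.93 and 2.73 with hypoxanthine. Hypoxanthine replicate 2 overlapped with glucose and lay just above inosine. In log2 terms it differed by 0.27 from inosine (95% interval 0.037 to 0.51, adjusted p = 0.10) and 0.29 from glucose (0.058 to 0.53, adjusted p = 0.081). Without hypoxanthine replicate 2 the adjusted p was 0.024 against inosine and 0.021 against glucose. Of 18 alternative settings, Dusp10 was called in 2 against inosine and in 3 against glucose, with adjusted p up to 0.3 and 0.25.

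The 4 abundant phosphatases changed in proportion, and their total had means of 223.5, 218.7 and 241.9 FPKM in glucose, inosine and with hypoxanthine. The summed FPKM of Dusp2, Dusp4, Dusp5 and Dusp6 was 216 to 236 in glucose, 187 to 240.0 in inosine and 221 to 260.3 with hypoxanthine, ranges that overlap. Dusp4 was 12.5%, 12.4% and 13.1% of that sum in glucose and 13.7%, 11.9% and 13.3% in inosine. With hypoxanthine it was 22.0%, 21.8% and 21.9%, again a narrow range. The Dusp2 share ran from 33.9% to 38.6% in the other media and from 29.5% to 30.5% with hypoxanthine, and the Dusp5 share from 26.5% to 31.4% and from 23.0% to 23.7%. The Dusp6 share with hypoxanthine, 24.1% to 25.4%, overlapped with inosine, where it ran from 19.7% to 26.4%.

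**Figure D2:**
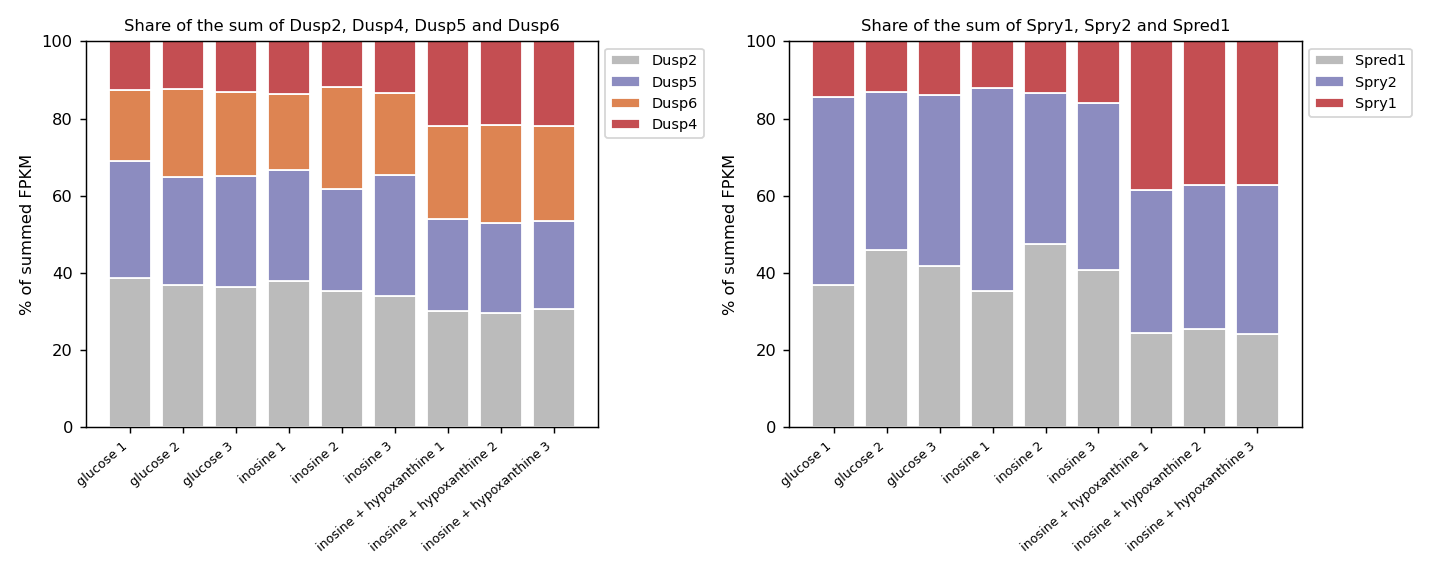
Percent of summed FPKM (y axis) in each of the 9 libraries (x axis), for Dusp2, Dusp4, Dusp5 and Dusp6 on the left and for Spry1, Spry2 and Spred1 on the right. The top band of each bar, Dusp4 or Spry1, is 21.8% to 22.0% and 37.1% to 38.6% in the 3 hypoxanthine libraries, against at most 13.7% and 16.1% in the others.

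Cblb, the ubiquitin ligase, measured 19.5, 17.6 and 18.2 FPKM in glucose and 22.6, 11.6 and 15.8 FPKM in inosine. With hypoxanthine it measured 38.7, 32.7 and 37.6 FPKM, with no overlap with either. Its mean was 2.18 times that in inosine and 1.97 times that in glucose. The log2 difference was 1.12 ± 0.19 (SE) from inosine and 0.94 ± 0.19 from glucose, with limma adjusted p of 0.0038 and 0.0092. Cblb spans chromosome 16 from 52031230 to 52208047 on the plus strand (GRCm38.p6), the longest of the 10 genes at 176818 bases, and no annotated gene shares exonic bases with it.

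Ptpn22, the phosphatase of LCK and ZAP70, had the smallest standard error of the 10, 0.062 on the log2 scale. It measured 37.8, 39.3 and 39.5 FPKM in glucose, 42.8, 38.7 and 38.8 in inosine, and 43.8, 42.5 and 44.0 with hypoxanthine. The hypoxanthine libraries lay above the glucose libraries and overlapped with inosine replicate 1. The log2 difference was 0.12 from inosine (95% interval -0.025 to 0.26, adjusted p = 0.24) and 0.16 from glucose (0.017 to 0.30, adjusted p = 0.11). Quantile normalization of the libraries gave 0.21 (adjusted p = 0.038) and 0.27 (adjusted p = 0.014), the highest values of 18 alternative settings. Over those settings the log2 difference ran from 0.03 to 0.21 against inosine and from 0.044 to 0.27 against glucose. Ptpn22 was called in 1 of them against inosine and in 2 against glucose. The authors' deposited log2 fold changes were -0.021 against inosine and 0.019 against glucose.

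**Figure D3:**
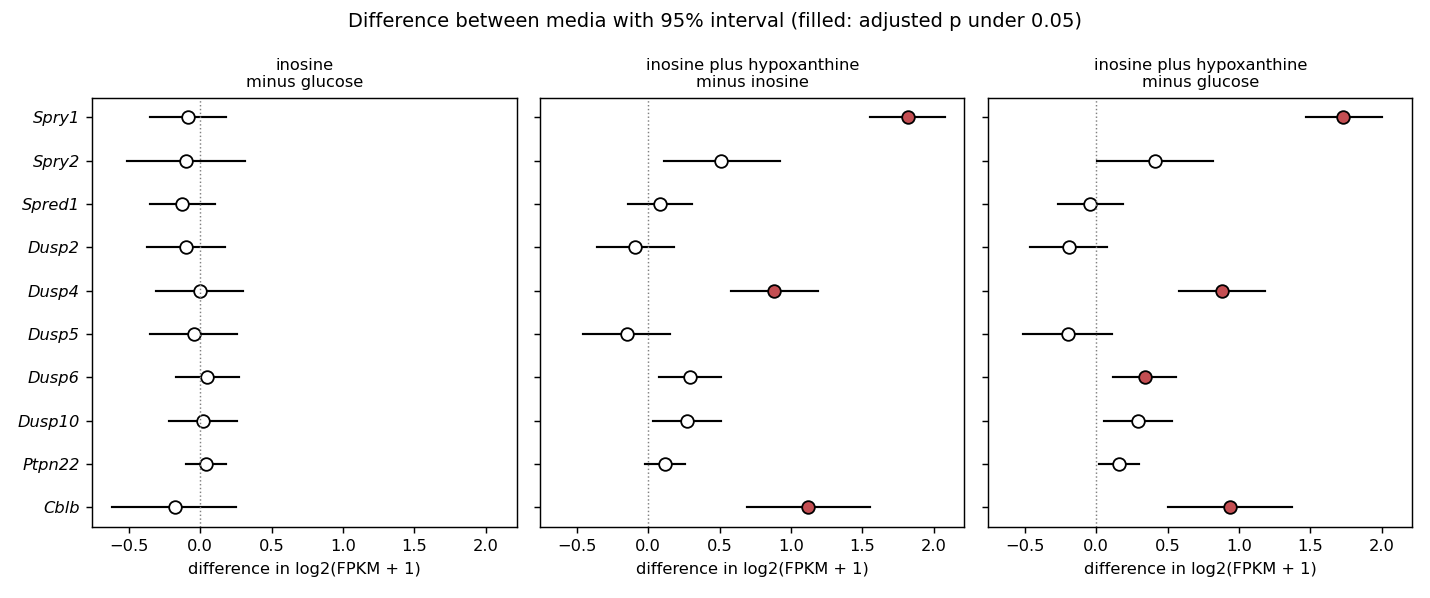
Difference in log2(FPKM + 1) between media (x axis) for the 10 genes (y axis), with the limma estimate as a point and its 95% interval as a line; filled points have an adjusted p under 0.05. All 10 intervals of the first panel include 0, and Spry1, Cblb and Dusp4 lie farthest from 0 in the other panels.

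The comparison of inosine with glucose asks whether the nucleoside in place of the sugar changes these genes. None of the 10 was called by limma, none had an unadjusted p under 0.05, and each adjusted p was 1. Limma voom on recovered reads called none either. The log2 differences ran from -0.18 (Cblb) to 0.050 (Dusp6). Their median was -0.066, beside -0.00063 over all genes and -0.019 over genes averaging 1 FPKM or more. The widest 95% interval was that of Cblb, -0.62 to 0.25, and the narrowest that of Ptpn22, -0.098 to 0.18. All 10 genes overlapped between these media. Over all genes, 0.0097% were called in this comparison, 584 genes had an unadjusted p under 0.05, and 5.05% did not overlap.

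Adding hypoxanthine to inosine moved a large part of the transcriptome, which sets the scale for the 10 genes. Of all genes 21.3% were called, 11.7% higher and 9.59% lower. Of the 10 genes 3 were called, all higher, and 7 were not. In 5 of the 10 the 3 libraries with hypoxanthine stood apart from the 3 with inosine (Spry1, Dusp4, Dusp6, Dusp10 and Cblb, all higher with hypoxanthine), as was so for 34.4% of all genes. The median log2 difference of the 10 was 0.28, beside 0.0016 over all genes and 0.019 over genes averaging 1 FPKM or more. Of the 10 values 8 were above 0.

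Inosine plus hypoxanthine against glucose gave a like picture, with the same hypoxanthine libraries in both comparisons. Of all genes 20.3% were called, 10.8% higher and 9.55% lower. Of the 10 genes 4 were called, all higher. In 7 of them the libraries stood apart, 6 higher and Dusp5 lower, against 37.6% of all genes. The median log2 difference of the 10 was 0.32, beside 0.0012 over all genes and -0.0019 over genes averaging 1 FPKM or more. The test among the 3 media at once called Spry1, Dusp4 and Cblb, with adjusted p of 4.6e-05, 0.0027 and 0.0069, where it called 19.3% of all genes.

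The authors' deposited tables hold their own test of the same libraries. Against inosine, 5 of the 10 genes passed an adjusted p of 0.05 there, all higher with hypoxanthine, where 22.7% of the genes with an adjusted p passed. In the authors' deposited table these are Spry1, Dusp4, Cblb, Spry2 (adjusted p = 0.021) and Dusp6 (adjusted p = 0.015). Against glucose the authors' deposited table has the same 5 genes higher, and Dusp5 lower with an adjusted p of 0.042, where 26.5% of genes passed. Between inosine and glucose none of the 10 passed in the authors' deposited table. Spry2 thus passed in both comparisons of the authors' deposited tables and in neither with the main limma fit on FPKM. With a filter at a mean of 1 FPKM, limma called it against inosine (adjusted p = 0.026) but not against glucose.

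Ordered by mean level, the 10 genes had the same order in glucose and in inosine: Dusp2, Dusp5, Dusp6, Ptpn22, Dusp4, Cblb, Spry2, Spred1, Spry1 and Dusp10. In glucose the means ran from 83.3 FPKM for Dusp2 to 1.78 FPKM for Dusp10, and the only neighbours whose libraries overlapped were Spry2 and Spred1. In inosine, Dusp2 and Dusp5, Dusp4 and Cblb, Spry2 and Spred1, and Spry1 and Dusp10 overlapped. With hypoxanthine the means ran from 72.8 to 2.42 FPKM. Dusp6, Dusp5 and Dusp4 then stood close together at 59.6, 56.4 and 53.0 FPKM, with neighbours overlapping, and Dusp4 lay above Ptpn22. Spry1 and Spry2 overlapped at a mean of 9.31 FPKM each, and Spry1 lay above Spred1 instead of below it.

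Within a medium, the same library was often the lowest. Inosine replicate 2 was the lowest of its 3 libraries in 9 of the 10 genes (Dusp6 excepted), where it was the lowest in 44.3% of the 9947 genes averaging 1 FPKM or more. Hypoxanthine replicate 2 was the lowest in all 10, against 54.4% of those genes. After median-of-ratios scaling the counts were 9 and 9. The share of FPKM from mitochondrial genes was 6.50% in inosine replicate 2 and 5.84% in hypoxanthine replicate 2, and 4.03% to 4.82% in the other 7. Leaving both libraries out, which was chosen after seeing the data, left Spry1, Dusp4 and Cblb called in both comparisons with hypoxanthine, with log2 differences from inosine of 1.80, 0.79 and 0.97. Against glucose, Dusp6 was then no longer called (adjusted p = 0.057) and Spry2 was (0.036), and Dusp10 was called against inosine (0.048) and glucose (0.023). The part of the mitochondrial share in the spread was not tested.

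Promoter sequence was looked at for the genes whose level moved and for 2 abundant phosphatases whose level was not called. RefSeq promoters (GRCm38.p6, 250 bases before to 50 after the start) were matched for 9 of the 10 genes, all but Dusp4. They were searched on both strands for letters bound by factors of the receptor pathway: NFAT (GGAAAA), AP-1 (TGANTCA), CRE (TGACGTCA), ETS (CCGGAAGT), EGR (GCGNGGGCG), E-box (CACGTG) and the CArG box of serum response factor. These are the 250 bases before the start, 5′ to 3′ on the plus strand, of Spry1 (chr3:37639697-37639946) and Cblb (chr16:52031299-52031548), which rose, and of Dusp2 (chr2:127335909-127336158) and Dusp5 (chr19:53528895-53529144), with matches in capitals. The Cblb start in the RefSeq promoter table lies downstream of the outermost start of the gene, so its window falls inside the gene span given above.
Spry1: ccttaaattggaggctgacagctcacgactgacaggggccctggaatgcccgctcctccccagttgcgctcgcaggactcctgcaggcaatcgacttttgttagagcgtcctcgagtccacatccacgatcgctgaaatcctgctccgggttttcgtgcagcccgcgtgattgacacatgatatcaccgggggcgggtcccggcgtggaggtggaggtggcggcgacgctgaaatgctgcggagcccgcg
Cblb: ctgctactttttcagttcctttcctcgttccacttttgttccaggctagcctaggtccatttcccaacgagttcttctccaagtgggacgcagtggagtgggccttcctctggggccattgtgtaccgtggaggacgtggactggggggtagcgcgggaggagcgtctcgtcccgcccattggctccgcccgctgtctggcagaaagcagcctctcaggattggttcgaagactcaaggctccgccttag
Dusp2: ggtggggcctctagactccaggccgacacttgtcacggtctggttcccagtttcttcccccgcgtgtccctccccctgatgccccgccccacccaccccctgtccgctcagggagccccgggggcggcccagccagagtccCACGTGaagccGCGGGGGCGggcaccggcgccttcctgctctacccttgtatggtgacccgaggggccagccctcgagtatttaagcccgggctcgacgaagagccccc
Dusp5: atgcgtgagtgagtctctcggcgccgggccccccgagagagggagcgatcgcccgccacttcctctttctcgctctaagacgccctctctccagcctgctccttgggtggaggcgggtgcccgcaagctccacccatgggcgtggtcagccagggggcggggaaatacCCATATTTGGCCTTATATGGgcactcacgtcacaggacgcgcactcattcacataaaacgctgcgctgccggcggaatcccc

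None of the 7 motifs was found in the Spry1 or Cblb window. Dusp2 holds an E-box that begins 109 bases before the start and an EGR match 98 bases before it. Dusp5 holds a pair of CArG boxes that begin 82 and 72 bases before the start, back to back. Spry2 holds NFAT letters 96 and 16 bases before its start. In the promoters of Spred1, Dusp6, Dusp10 and Ptpn22 no match was found. The Ptpn22 windows begin at chr3:103859545 and chr3:103860027, inside the gene, whose outermost start is at 103856575, so sequence before that start was not searched. Over 32851 promoters of the same length, the CArG box was found in 1.63%, the E-box in 7.15%, EGR in 5.55%, NFAT in 23.4%, AP-1 in 7.81%, ETS in 3.89% and CRE in 1.79%. A match describes letters only and was not tested for binding. The short EGR and E-box matches in Dusp2 do not overlap each other.

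To place the 10 genes in their pathway, 4 lists of other genes were described in the comparison of hypoxanthine plus inosine with inosine. Their counts stand beside 11.7% called higher and 9.59% called lower over all genes. Among genes averaging 1 FPKM or more, 32.9% were called in either direction. The median log2 difference was 0.0016 over all genes and 0.019 over those averaging 1 FPKM or more. The sprouty family and the MAP kinase phosphatases outside the 10 gave 14 genes, 5 of them with a mean under 1 FPKM. Of these 1 was called higher, 2 lower and 11 not, with a median log2 difference of -0.0077. Dusp14, a phosphatase that acts on the TAB1 adaptor in T cells, rose from 5.14, 4.00 and 4.75 FPKM in inosine to 9.00, 8.49 and 9.31 FPKM, a log2 difference of 0.82 with an adjusted p of 0.00035. Ptpn7, a tyrosine phosphatase of ERK in blood cells, was lower by a log2 difference of -0.38 (adjusted p = 0.020), as was Dusp3, named here after its values were seen, by -0.37 (adjusted p = 0.024). Dusp7, the next of kin of Dusp6, had means of 9.99 and 7.75 FPKM in inosine and with hypoxanthine, and its adjusted p was 0.12.

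Other negative regulators of receptor signalling gave 30 genes, of which 10 were called higher, 4 lower and 16 not, with a median log2 difference of 0.14. Sla, an adaptor that lowers the amount of the receptor on the surface, rose from 27.2, 31.7 and 25.3 FPKM in inosine to 90.4, 88.2 and 89.3 FPKM (log2 difference 1.64, adjusted p = 5.5e-05). Rgs1, one of the 10 called higher, is in this list although its known action is to shorten signalling by G protein-coupled receptors. It had a log2 difference of 1.37 (adjusted p = 0.0024), and Ptpn6, the phosphatase SHP-1, of 0.57 (adjusted p = 0.00060). Dok2, an adaptor that recruits a Ras-inactivating protein, went the other way, from 87.6, 85.2 and 89.7 FPKM to 45.0, 46.4 and 45.5 FPKM, a log2 difference of -0.92 (adjusted p = 2.2e-05). Also called lower were Inpp5d and Pag1, named after their values were seen.

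The next list holds the pathway that these genes restrain. Of its 28 genes from the receptor to the MAP kinases, 4 were called higher, 4 lower and 20 not, with a median log2 difference of 0.048. Lat, the adaptor on which the signal is assembled, fell from 185 to 142 FPKM on average (-0.38, adjusted p = 0.0044). Lck, the kinase that starts the signal and a target of PTPN22, fell from 209 to 175 FPKM on average (-0.26, adjusted p = 0.039).

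The last list holds genes known to respond to ERK early after stimulation. Of its 20 genes, 10 were called higher, 3 lower and 7 not, beside 11.7% and 9.59% of all genes, with a median log2 difference of 0.38. Nr4a1, a nuclear receptor induced by the T cell receptor, rose from 6.57, 4.34 and 6.19 FPKM in inosine to 18.6, 15.6 and 18.8 FPKM (log2 difference 1.49, adjusted p = 0.00019). Etv4, an ETS factor, had a log2 difference of 0.97 (adjusted p = 0.00026), and Myc of 0.74 (adjusted p = 0.0096). Junb, the most abundant of this list, ran from 71.1 to 151 FPKM in inosine and from 128 to 167 with hypoxanthine and was not called (adjusted p = 0.44). The 3 called lower, named after their values were seen, were Fosl1, Ier3 and Jun. Against glucose the same 4 lists gave 1 higher and 3 lower, 10 and 4, 2 and 4, and 9 and 3, and between inosine and glucose no gene of any list was called.

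**Figure D4:**
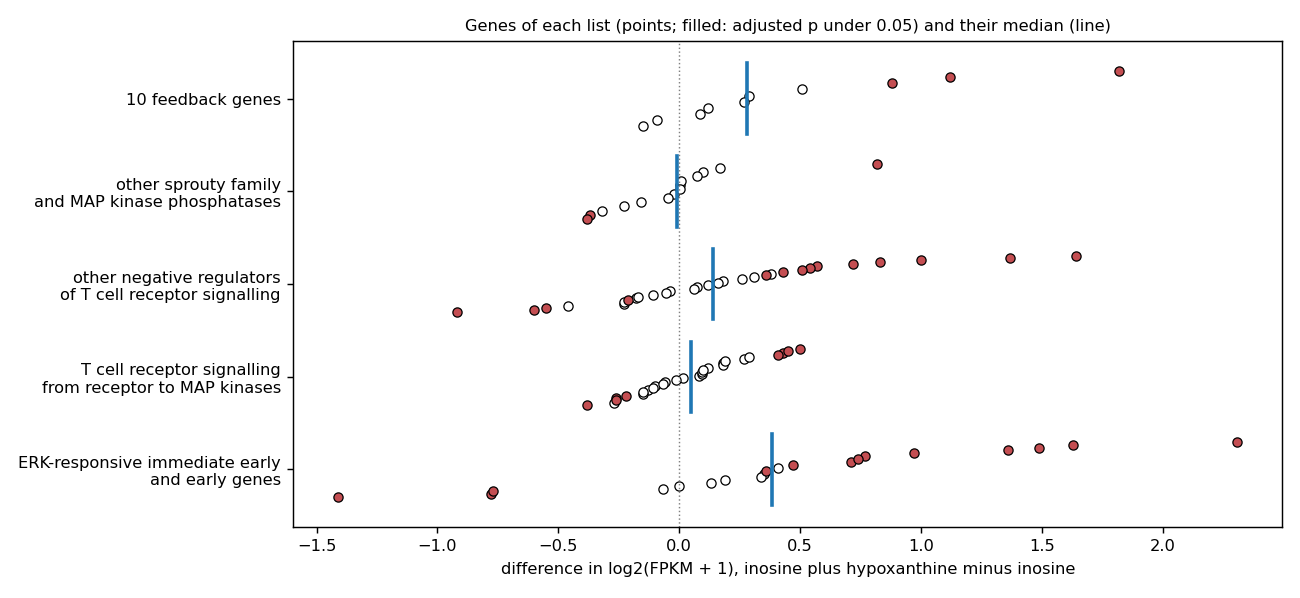
Difference in log2(FPKM + 1) between inosine plus hypoxanthine and inosine (x axis) for the genes of each list (y axis), filled where the adjusted p was under 0.05, with the list's median as a line. The median was 0.28 for the 10 genes and 0.38 for the ERK-responsive genes, and between -0.0077 and 0.14 for the other lists.

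For each of the 4 genes called in any comparison, the expressed genes with the closest profile were found by the root mean square distance of log2(FPKM + 1), each gene centred on its own mean over the 9 libraries, among 9547 genes. Nearest to Spry1 were Igfbp7 (distance 0.110), Ephx1 (0.112) and Zc3h12d (0.115), where Spry1 itself lay 0.846 from its own mean. Zc3h12d had means of 6.34, 6.43 and 25.0 FPKM in glucose, inosine and with hypoxanthine. Nearest to Dusp4 were Sh3rf1 (0.0583), Mfhas1 (0.0595) and Hivep1 (0.0683), with Dusp4 at 0.441 from its mean. Among the 3 nearest to Cblb were Macrod1 (0.0876) and Hivep1 (0.0928), with Cblb at 0.539. Nearest to Dusp6 were H2-K1 (0.0393), Sptan1 (0.0436) and Gimap1 (0.0439), with Dusp6 at 0.179. None of the other feedback genes was among the 3 nearest of these 4. With 9547 genes compared, that says little on whether the feedback genes varied together.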

How the data were processed

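The files hold 3 tables of 20618 genes. The submitters' processing notes name the mm10 build and the tools DESeq2 1.38.3, Subread 2.0.1, featureCounts and HISAT2; which tool did what is not given in the sources used here. FPKM per library and, per medium, a mean read signal scaled by library were deposited by the authors, as were their log2 fold changes, p-values and adjusted p-values. The authors' fold changes are control minus hypoxanthine in 2 tables and were turned round.

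From FPKM, limma 3.58.1 (R 4.3.3; trend, robust) was fitted to log2(FPKM + 1) of all genes without a filter. Whole reads were recovered from the deposited mean signals for 99.63% of genes, within 0.0005 of a whole number (0.05 for high genes), and gave depth and limma voom. The test was run on simulated data first. The members and lists were chosen with earlier results of these data known. Genes named from a list are the 2 with the smallest adjusted p against inosine, the 2 most abundant, and those said to be named after their values were seen. A few genes that these rules name are not reported here. Nearest profiles exclude predicted genes and means under 1 FPKM. Coordinates are RefSeq's on GRCm38.p6, the assembly of mm10; overlaps are from GENCODE. Alternatives were another pseudocount (0.1), a filter, other scalings and fits, and leaving out libraries.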

Additional observations from a re-analysis of the deposited data

How the results depend on the processing

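Spry1, Dusp4 and Cblb were called higher with hypoxanthine in all 18 alternatives of both comparisons. Of the 10 genes, 5 instead of 3 were called against inosine with a filter at a mean of 1 FPKM, with quantile normalization and with limma voom; among the 3 media 5 instead of 3 with quantile normalization and limma voom. Without 1 library the called genes of the 10 numbered 3 to 4 against inosine, 3 to 5 against glucose, and 3 to 4 among the media. Over all genes, leaving out 1 library gave 2757 to 4487 calls against inosine and 2677 to 4879 against glucose, each lowest without hypoxanthine replicate 3, and 1 to 7 for inosine against glucose. That last count was 2, and 0 with the filter, with neither trend nor robust settings, with 2 media alone and with limma voom, 1 with the replicate block, and 1 without the 2 libraries of highest mitochondrial share. The cause was not tested. Replicate numbers gave no consistent pairing, and the labels do not state one: same-numbered libraries correlated at 0.404, 0.264 and -0.27 between inosine and glucose, at 0.411, 0.635 and 0.0177 with hypoxanthine against inosine, and at 0.0847, -0.201 and -0.0629 against glucose. With the replicate block, 4396 and 4251 genes were called in the hypoxanthine comparisons; Spry2 was called against inosine (adjusted p = 0.026) and Dusp6 not against glucose (0.052).

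Differences that changed sign were all uncalled. Between inosine and glucose, Dusp4 was 0.011 with median-of-ratios scaling and 0.020 with quantile normalization; without the 2 libraries of highest mitochondrial share Spry1 was 0.020, Spry2 0.10, Dusp2 0.013, Dusp4 0.16, Dusp5 0.12 and Cblb 0.037. Leaving out 1 library gave -0.18 to 0.02 for Spry1, -0.30 to 0.10 for Spry2, -0.22 to 0.013 for Dusp2, -0.11 to 0.16 for Dusp4, -0.15 to 0.12 for Dusp5, -0.046 to 0.14 for Dusp6, -0.049 to 0.08 for Dusp10, -0.0043 to 0.067 for Ptpn22 and -0.41 to 0.037 for Cblb. With hypoxanthine against inosine, quantile normalization gave -0.013 for Spred1 and 0.010 for Dusp2, and leaving out 1 library gave -0.21 to 0.022 for Dusp2. Against glucose, Spred1 was 0.024 without those 2 libraries and -0.13 to 0.047 without 1 library. Depth limits Spry1 and Dusp10 most, with lowest counts of 204 and 176 reads.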

Other observations

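Cbl, the close relative of Cblb and likewise a ubiquitin ligase of the receptor pathway, gives a measure of how far the pair moved apart. The 3 glucose libraries had 8.06, 9.63 and 9.61 FPKM of Cbl. Those with inosine had 9.95, 7.52 and 8.90, and those with hypoxanthine 11.2, 10.1 and 11.9. The hypoxanthine libraries all lay above the others, yet the log2 difference of 0.31 from inosine was not called by limma (95% interval 0.053 to 0.56, adjusted p = 0.088). Cblb made up 64.7% to 70.8% of the summed FPKM of the pair in glucose and 60.7% to 69.4% in inosine. With hypoxanthine its share was 75.9% to 77.5%.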
